A study of Mus musculus with 27 samples.

Results

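Hair follicle stem cells (HFSCs) grown with BMP2 and BMP4 were compared with HFSCs grown in B-27 alone, a serum-free supplement that replaces fetal bovine serum (FBS). The cells came from 2 mouse lines, 1 line per mouse, and were read by 10x Genomics 3' single cell RNA-sequencing. Cells were members of the comparison when they had at least 500 detected genes, at least 1000 unique molecular identifiers (UMIs, each standing for 1 captured RNA molecule), under 10% mitochondrial UMIs, and at least 20 hashtag counts with at least 70% of them from 1 hashtag. By this rule 152 of 657 barcodes were members. The BMP2/4 cultures held 136 cells, 122 from mouse 1 and 14 from mouse 2, and the B-27 cultures held 16 cells, 6 from mouse 1 and 10 from mouse 2.

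Both lines were wild-type and came from back skin in anagen VI, the late growth phase of the hair cycle. Skin taken at that phase is labelled postnatal day 32, and the labels of the cultures give no age. The B-27 cultures held neither all-trans retinoic acid (atRA) nor the protein kinase C inhibitor (PKCi), whereas the BMP2/4 cultures, per the methods of the study, held both. The comparison therefore covers BMP2, BMP4, atRA and PKCi together, and their shares in a difference cannot be told apart within it. All cultures of 1 mouse were pooled in 1 GEM well, so each matrix also shares its free RNA among cultures.

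BMPs bind type I and type II serine/threonine kinase receptors, which phosphorylate SMAD proteins. These enter the nucleus with SMAD4 and switch on direct targets such as the Id genes, whose products block basic helix-loop-helix transcription factors, and the inhibitory Smads, which feed back on the receptors. In the hair follicle, BMPs keep bulge stem cells at rest and later act in the differentiating hair lineages. Retinoic acid binds RAR-RXR receptor pairs on DNA, and several of its targets handle retinoids themselves. In the epidermis, keratinocytes that leave the basal layer switch from Krt5 and Krt14 to Krt1 and Krt10 and then to the proteins of the cornified envelope, among them filaggrin.

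The culture of each cell was read from a barcoded antibody, so that every member carries 1 of the following sequences. They are shown in capitals as the deposited hashtag list spells them, because the comparison rests on telling them apart.
HTO_0302, B-27: GGTCGAGAGCATTCA
HTO_0305, BMP2/4: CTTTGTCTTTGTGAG
B-27 cells carried a median of 34217 counts of their own hashtag in mouse 1 and 22568.5 in mouse 2, which made up a median of 98.5% and 98.3% of their hashtag counts. BMP2/4 cells carried 1866.5 in mouse 1 and 4809.5 in mouse 2, with medians of 79.2% and 92.1%. In mouse 1, 110 of the 122 BMP2/4 cells fell under 90%. Over all 122, the medians of the other hashtags, each taken across cells, reached at most 96 counts. That is no limit on the second hashtag of a single cell. No barcode was shared between the 2 mice (0 barcodes).

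The 16 B-27 cells gave 204077 UMIs in mouse 1 and 219676 in mouse 2, and the 136 BMP2/4 cells gave 4178524 and 565546. Median UMIs per cell were 25010 and 15300 in B-27 and 34350.5 and 33661.5 in BMP2/4. A single cell held 41.2% of the B-27 UMIs of mouse 1, with 84151 UMIs, and another held 37.8% of those of mouse 2, with 83022. Median mitochondrial shares of UMIs were 6.14% and 6.88% in B-27 and 6.08% and 5.72% in BMP2/4. The basal keratin genes Krt5 and Krt14 had UMIs in every member, as the label of the cells implies, while Cd34, the surface marker by which the lines had been sorted, had a UMI in 0 members. Levels are given below as CPM, the UMIs of a gene scaled so that those of 1 culture and 1 mouse sum to 1000000, with mouse 1 before mouse 2. Fold changes are log2 values of BMP2/4 over B-27 from edgeR, with the standard error (SE) and the p-value adjusted over the 6419 genes tested. Each value rests on 2 sums per culture.

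With an adjusted p below 0.01 and a log2 fold change above 1 or below -1 as the limits, 72 genes were higher in BMP2/4, which is 1.12% of the genes tested, and 543 were lower, which is 8.46%, or 9.58% in both directions together. Both BMP2/4 sums lay above both B-27 sums for 29.8% of genes and below both for 34.6%. The median log2 fold change over all genes tested was 0.01. The genes that were higher included Id1, Id2, Id3 and Smad7, and those with the strongest falls were genes of terminal epidermal differentiation such as Rptn, Krt78, Flg and Cdsn. Leaving out 1 sum at a time left 11 to 35 genes higher and 153 to 363 lower. Without the B-27 cell that was deepest in each mouse, 427 genes were higher and 863 lower.

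**Figure D1:**
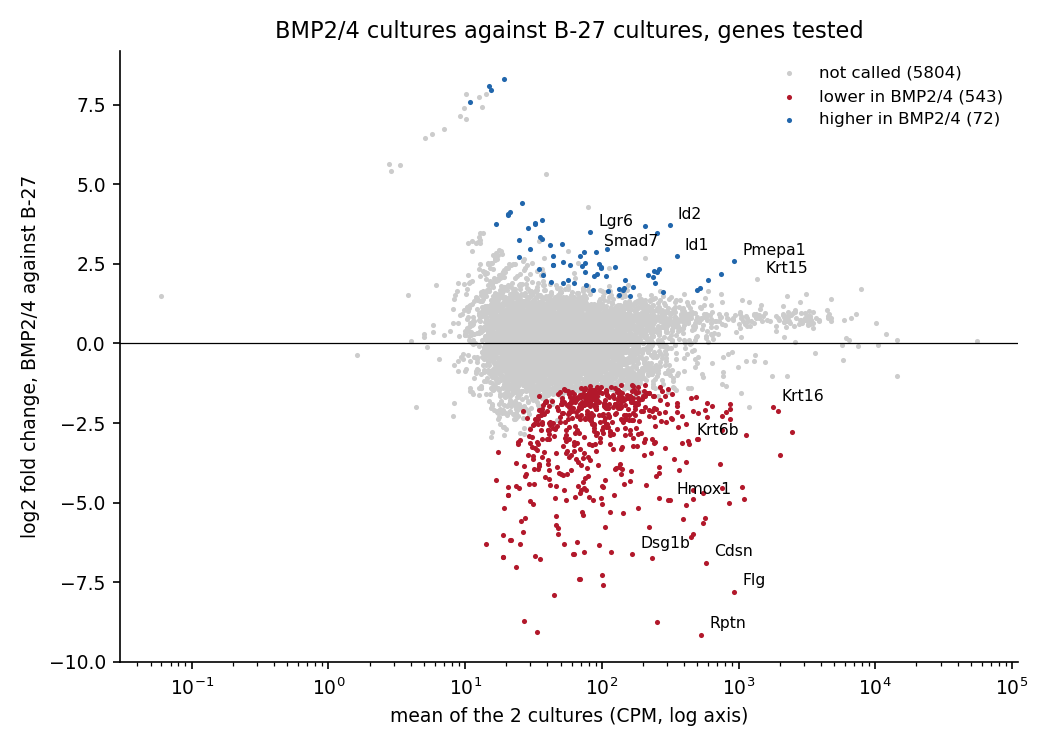
Each point is 1 of the 6419 genes tested, placed by its mean level in the 2 cultures (CPM, log axis) and its log2 fold change of BMP2/4 over B-27, with the 72 genes higher in BMP2/4 in blue, the 543 lower in red and the rest in gray. The falls reach log2 fold changes of -9.14 (Rptn), and the blue points above 7 are genes with 0 UMIs in B-27, whose fitted value is no bound on the fold.

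Direct BMP targets were higher in BMP2/4 cultures. Of 12 listed genes, 5 passed the filter on low counts, 4 of these were called higher, 0 lower, and their median log2 fold change was 2.86. Over all genes tested, 1.12% were called higher. Id2 (ENSMUSG00000020644, GRCm38 chr12:25093799-25097140) stood at 39.2 and 54.6 CPM in B-27 and at 572 and 584 CPM in BMP2/4. Both BMP2/4 sums lay far above both B-27 sums, with a log2 fold change of 3.72 (SE 0.51, adjusted p = 2.17e-05). Id3 (ENSMUSG00000007872, GRCm38 chr4:136143497-136145755) had 53.9 and 36.4 CPM in B-27 and 422 and 506 CPM in BMP2/4, a log2 fold change of 3.48 (SE 0.57, adjusted p = 0.000163). Id1 (ENSMUSG00000042745, GRCm38 chr2:152736251-152737410) had 152 and 50.1 CPM in B-27 and 661 and 545 CPM in BMP2/4. The B-27 mice were more unlike each other in Id1 than in Id2 or Id3, and the groups did not overlap (log2 fold change 2.73, SE 0.48, adjusted p = 0.000351). Without the B-27 sum of mouse 2 the adjusted p of Id1 was 0.0189. In mouse 1, 48.4% of the B-27 Id1 UMIs lay in 1 cell, of 15122 UMIs. It was the B-27 cell that HTODemux, another way to call hashtags, classed as a doublet. With HTODemux hashtags, which also changed the BMP2/4 cells kept, the log2 fold change of Id1 was 3.31 (adjusted p = 0.00184).

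Smad7, an inhibitory Smad that limits signaling at the receptors, had 24.5 and 22.8 CPM in B-27 and 170 and 143 CPM in BMP2/4. Its log2 fold change was 2.86 (SE 0.50, adjusted p = 0.000325), and without the B-27 sum of mouse 1 it was no longer called. Smad6, the other inhibitory Smad, had 4.90 and 4.55 CPM against 15.3 and 38.9 CPM and did not pass (adjusted p = 0.0915). Id4, Smad9, Bambi, Msx1, Msx2, Atoh8 and Hey1 had too few UMIs to be tested. These 4 calls were made again without the deepest B-27 cells, without the B-27 cell of each mouse richest in differentiation genes, and with hashtags called by HTODemux. With cells thinned to 3000 UMIs, 3 of the targets were tested and 2 were called, since Id1 lost its call.

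After each cell was thinned to 3000 UMIs, Id1 had a UMI in 2 of 6 B-27 cells of mouse 1 and in 1 of 10 of mouse 2. In BMP2/4, it had one in 88 of 111 cells (79.3%) and in 8 of 11 cells (72.7%), with 11 and 3 shallower cells left out. Exact Clopper-Pearson 95% intervals, which cover counting error only, were 4.33% to 77.7% and 0.253% to 44.5% in B-27, and 70.5% to 86.4% and 39.0% to 94.0% in BMP2/4. Before thinning, 83.3% and 70.0% of B-27 cells and 94.3% and 78.6% of BMP2/4 cells had an Id1 UMI. The matrices hold no cell type known to lack Id1, so the share of cells that free Id1 RNA alone would give was not measured.

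The window upstream of the RefSeq start of Id2 is shown because Id2 had the lowest adjusted p of the listed BMP targets. It lies inside the Id2 span given above, which comes from GENCODE and begins further upstream. The 250 bases before the RefSeq start (GRCm38.p6, chr12:25096093-25096342, minus strand) are given 5′ to 3′, with capitals for GGCGCC, a GC-rich palindrome of the kind bound by BMP SMADs, which reads the same on both strands.
Id2: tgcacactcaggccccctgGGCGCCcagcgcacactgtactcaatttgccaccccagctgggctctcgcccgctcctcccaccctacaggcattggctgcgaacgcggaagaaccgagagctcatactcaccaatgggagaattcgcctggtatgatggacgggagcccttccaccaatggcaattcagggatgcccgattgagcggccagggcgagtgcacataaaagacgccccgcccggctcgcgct
These letters occurred in 9.59% of 32851 such windows. Of 12 listed BMP targets, 8 had a window in the table, and GGCGCC was in those of Id2, Id4 and Smad9. The Id3 window, which also lies inside the gene span given above, held 0 matches.

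The other serum-free cultures of the same wells were set beside the members as values, with no test. Id1 stood at 67.1 and 90.6 CPM in the atRA+PKCi cultures, which hold 2 cells and 1 cell, and at 149 and 132 CPM in the R-spondin (Rspo) cultures of 8 and 9 cells, which also held atRA+PKCi. With Rspo and BMP2/4 together, it stood at 561 and 505 CPM. In atRA+PKCi, Id3 had 40.2 and 45.3 CPM, in Rspo 42.7 and 132 CPM, and 349 and 314 CPM in Rspo with BMP2/4. With Rspo, BMP2/4 and an inhibitor of retinoic acid receptors (RARi), in 7 and 25 cells, Id1 stood at 280.4 and 495 CPM and Id3 at 108 and 306 CPM. In both genes, BMP2/4 alone and BMP2/4 with Rspo stood above every culture without BMP2/4, whereas the Id3 level of the culture with RARi in mouse 1 was under that of Rspo in mouse 2. The listed BMP targets together took 0.187% and 0.185% of UMIs in BMP2/4, 0.153% and 0.153% with Rspo, and 0.0633% and 0.121% with Rspo and RARi, against 0.0274% and 0.0178% in B-27. For Id2, the atRA+PKCi cultures had 174 and 113 CPM, so that its B-27 values were the lowest of the serum-free cultures without BMP2/4.

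**Figure D2:**
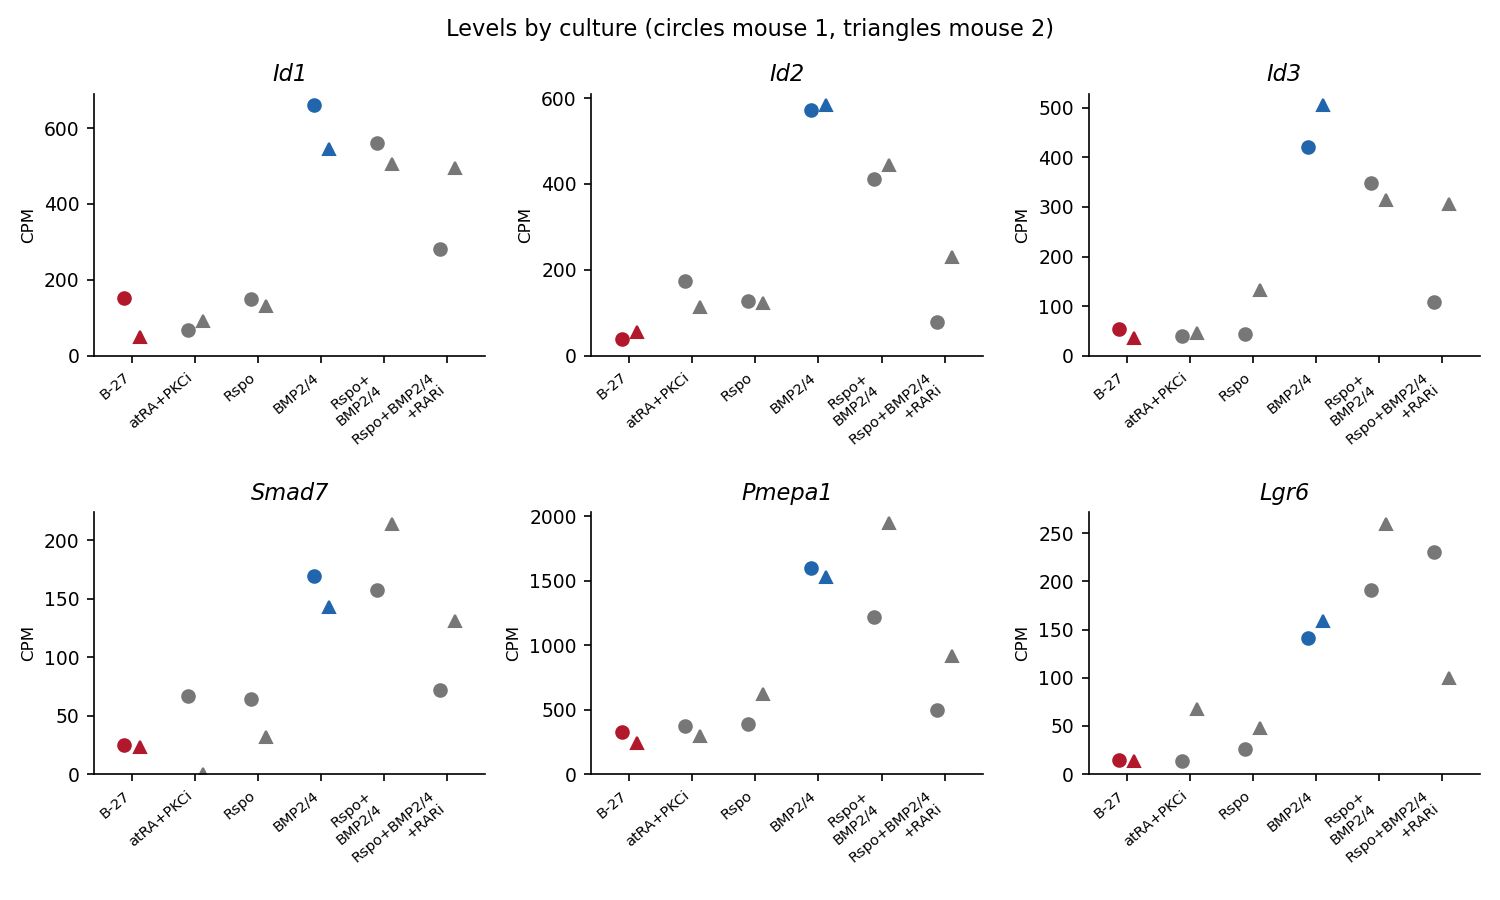
Levels of 6 genes (CPM, linear axes from 0) in each serum-free culture of mouse 1 (circles) and mouse 2 (triangles), B-27 in red and BMP2/4 in blue. The blue points of Id1 (661 and 545) and Id3 (422 and 506) stand above the B-27, atRA+PKCi and Rspo points of both mice, and the atRA+PKCi points rest on 2 cells and 1 cell.

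Upstream of these targets, few genes could be tested. Of 13 listed BMP ligands, receptors and Smads, 6 were tested, 0 were higher and 1 was lower, with a median log2 fold change of -0.70. Over all genes tested 1.12% were higher and 8.46% lower, so 0 of 6 higher is no result about the pathway. Acvr2a, a type II receptor, had 103 and 95.6 CPM in B-27 and 18.7 and 26.5 CPM in BMP2/4, a log2 fold change of -2.10 (SE 0.38, adjusted p = 0.000479). Its UMIs were spread over all 6 B-27 cells of mouse 1 and 6 of 10 of mouse 2. It was not called without the BMP2/4 sum of mouse 1 or with hashtags called by HTODemux. The type I receptor Bmpr1a had 196 and 105 CPM against 76.3 and 79.6 CPM (adjusted p = 0.211), and Bmpr2, its type II partner, 250 and 146 CPM against 134 and 129 CPM (adjusted p = 0.402). Smad1 (adjusted p = 0.472) and Smad4 (adjusted p = 0.263), the signal carriers, did not pass either.

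Of 10 listed BMP antagonists, 3 were tested and 1 was lower, where 8.46% of all genes tested were lower. Fst, which encodes the secreted activin and BMP trap follistatin, had 461 and 219 CPM in B-27 and 95.2 and 51.3 CPM in BMP2/4, with a log2 fold change of -1.98 (SE 0.46, adjusted p = 0.00381). In B-27, 91.5% and 83.3% of its UMIs lay in the deepest cell of each mouse. Without those 2 cells its log2 fold change was 0.51 (adjusted p = 0.486), so the fall rested on them. Its call was also lost without the B-27 sum of mouse 1 (adjusted p = 0.120) or either BMP2/4 sum (0.0159 and 0.0866). Sostdc1, another secreted antagonist, had 44.1 and 59.2 CPM against 75.6 and 67.2 CPM and did not pass (adjusted p = 0.535).

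Of 10 listed targets of TGF-beta, a ligand of the same superfamily that acts through other SMADs, 7 were tested, 3 were higher and 0 lower, with a median log2 fold change of 2.22, where 1.12% of all genes tested were higher. Pmepa1, a transmembrane protein that binds receptor SMADs, had 328 and 241 CPM in B-27 and 1599 and 1526 CPM in BMP2/4 (log2 fold change 2.58, SE 0.47, adjusted p = 0.000436). The matricellular genes Ccn1 and Ccn2 had only 1 UMI in each B-27 sum, which is 4.90 and 4.55 CPM, against 66.3 and 53.0 CPM for Ccn1 and 58.4 and 47.7 CPM for Ccn2 in BMP2/4. DESeq2 called 1 of the 7, and leaving out either B-27 sum or the BMP2/4 sum of mouse 1 left 0, with adjusted p-values of Pmepa1 from 0.0102 to 0.0162. Skil, a SMAD repressor, stood at 39.2 and 9.10 CPM against 98.4 and 104 CPM and passed with mouse as a block but not without it (adjusted p = 0.0128).

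Among retinoid genes, the transporter Stra6 and the retinal reductase Dhrs3 were higher and Aldh1a3, an enzyme that makes retinoic acid, was lower. Of 19 listed genes, 6 were tested, and their median log2 fold change was 2.25. Over all genes tested, 1.12% were higher and 8.46% lower. Stra6 had 44.1 and 41.0 CPM in B-27 and 200 and 216 CPM in BMP2/4 (log2 fold change 2.40, SE 0.48, adjusted p = 0.00112). Dhrs3 had 29.4 and 18.2 CPM against 122 and 131 CPM (log2 fold change 2.53, SE 0.51, adjusted p = 0.00122). Neither call was made when either B-27 sum, or the BMP2/4 sum of mouse 1, was left out. Stra6 also lost its call with HTODemux hashtags (adjusted p = 0.0106) and with hashtag shares of at least 90%. It lost it too with BMP2/4 sums thinned to the B-27 totals and with cells thinned to 3000 UMIs. Levels of both genes in the other cultures with atRA+PKCi were also above B-27. In atRA+PKCi, Stra6 had 174 and 317 CPM, and in Rspo 102 and 248 CPM. Dhrs3 had 93.9 and 136 CPM in the former and 89.7 and 127 CPM in the latter.

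Aldh1a3 had 152 and 31.9 CPM in B-27 and 1.68 and 0 CPM in BMP2/4, a log2 fold change of -5.71 (SE 0.85, adjusted p = 6.33e-05). All 31 of its B-27 UMIs in mouse 1 lay in 1 cell, and in mouse 2 71.4% did. It was not called without the B-27 sum of mouse 1 (adjusted p = 0.0774) or the BMP2/4 sum of mouse 1 (adjusted p = 0.0170). Cyp26b1, which degrades retinoic acid, and the binding protein Crabp2 had positive log2 fold changes of 2.09 and 1.84 and did not pass (adjusted p = 0.112 and 0.151). Neither of the receptors tested passed. Rarg had 29.4 and 31.9 CPM against 44.3 and 44.2 CPM (adjusted p = 0.320), and Rxra 34.3 and 50.1 CPM against 31.6 and 42.4 CPM (adjusted p = 0.862).

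In separate bulk RNA-sequencing of wild-type HFSC cultures at postnatal day 55, with 2 mice in each of FBS and atRA+PKCi, the same genes had the following CPM of estimated counts. Dhrs3 had 7.73 and 6.48 in FBS and 185 and 175 in atRA+PKCi. Stra6 had 67.8 and 65.1 against 288 and 243, and Aldh1a3 55.3 and 68.3 against 0.622 and 0.364. Id1 had 98.4 and 100.3 against 121 and 133, and Id3 121 and 115 against 76.5 and 86.0. These libraries held no BMP2/4 and no B-27 control, and no test was made between them and the single cells.

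Epidermal differentiation genes were lower in BMP2/4 cultures. Of 30 listed genes, 21 were tested, 19 were lower and 0 higher, with a median log2 fold change of -3.78 beside 0.01 over all genes tested. Of all genes tested 8.46% were lower. Leaving out 1 sum at a time left 12 to 16 members lower. The list took 1.71% and 1.26% of UMIs in B-27 and 0.114% and 0.104% in BMP2/4. Flg, which encodes filaggrin, the keratin-bundling protein of the cornified layer (ENSMUSG00000102439, GRCm38 chr3:93273523-93293686), had 2112 and 1602 CPM in B-27 and 6.94 and 8.84 CPM in BMP2/4, a log2 fold change of -7.79 (SE 0.48, adjusted p = 1.85e-09). Cdsn, the corneodesmosome protein that holds dead cells together (ENSMUSG00000039518, GRCm38 chr17:35552128-35557180), had 2019 and 273 CPM against 8.14 and 8.84 CPM (log2 fold change -6.88, SE 0.69, adjusted p = 4.63e-07). Ivl (24.5 and 22.8 CPM against 37.6 and 47.7 CPM, adjusted p = 0.300) and Ovol1 (adjusted p = 0.115) were the tested members that did not pass. Krt1, the usual partner of Krt10, had 0 UMIs in the B-27 sums of both mice and was not tested.

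The genes of this list were not spread evenly over the B-27 cells. In mouse 1, 1 cell of 27849 UMIs gave 10.8% of its UMIs to the list and the other 5 cells gave 0.126% to 0.558%. In mouse 2, 3 cells gave 3.93% to 5.36% and the other 7 gave 0.0837% to 0.797%. Among BMP2/4 cells, the medians were 0.112% and 0.109% and the highest shares 0.901% and 0.706%. The highest BMP2/4 cell was thus below all 4 rich B-27 cells, while the remaining 12 B-27 cells overlapped the BMP2/4 cells. Part of that overlap came from shallow cells. BMP2/4 shares above 0.337% all lay in cells of at most 3107 UMIs, whereas every B-27 cell had at least 8291 UMIs. Some of the remaining B-27 cells, up to 0.797%, lay above the 0.337% that deeper BMP2/4 cells reached.

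**Figure D3:**
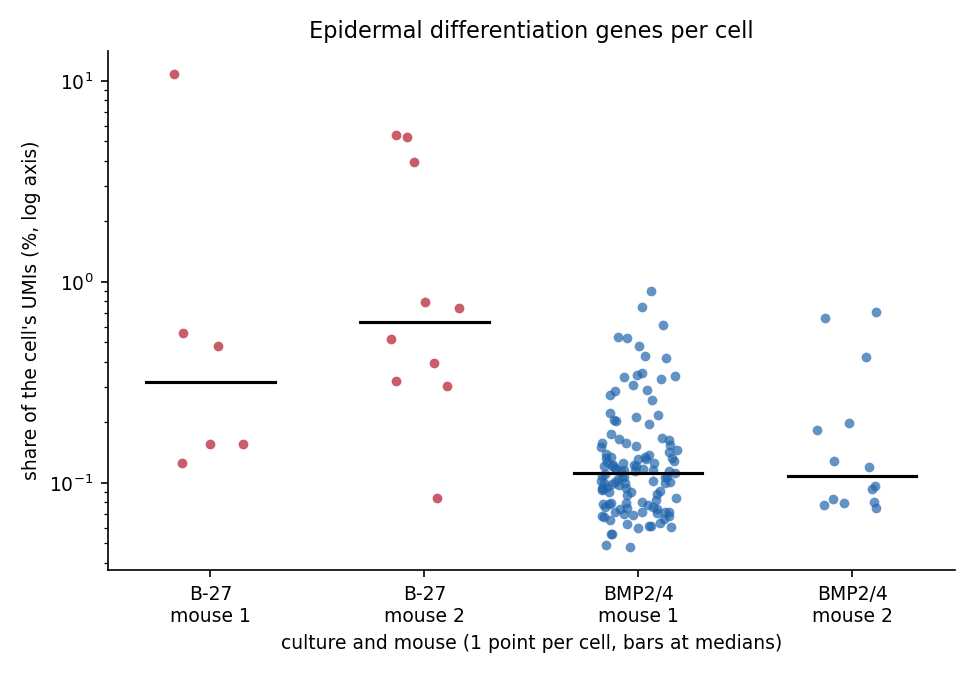
Share of each cell's UMIs that came from the 30 epidermal differentiation genes (percent, log axis), by culture and mouse, with 1 point per cell and bars at the medians. In B-27, 1 of 6 cells of mouse 1 (10.8%) and 3 of 10 of mouse 2 (3.93% to 5.36%) stand apart, and no BMP2/4 cell exceeds 0.901%.

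The genes of the cornified layer came almost wholly from those cells. The single cell of mouse 1 held 428 of 431 Flg UMIs, all 420 Rptn UMIs (repetin, a filaggrin relative), 411 of 412 Cdsn UMIs, 189 of 190 of Krt78 and all 112 of Hopx and 60 of Klk7, a corneocyte protease. In mouse 2, the 3 rich cells held 175, 142 and 2 of 352 Flg UMIs. The cell with 2 held 52 of 60 Cdsn UMIs and 58 of 126 of Klk7, and all 15 Rptn UMIs lay in the cell with 175 of Flg. The rich cells thus differed from each other in which of these genes they carried. Trp63, the transcription factor of basal keratinocytes, had 0 UMIs in all 4 of them, against 139 UMIs in the other 5 cells of mouse 1 and 103 in the other 7 of mouse 2, and the basal keratin gene Krt14 had UMIs in each of them.

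The cadherin genes Dsg1a, Dsg1b, Dsc1 and Dsc2 of the desmosome, which joins living cells, were lower as well. Part of their B-27 UMIs lay outside the rich cells. These genes came from the differentiation list or from the strongest falls, and other desmosome genes were not looked at. Dsg1b, a desmoglein, had 260 and 396 CPM in B-27 and 3.11 and 1.77 CPM in BMP2/4 (log2 fold change -6.62, SE 0.52, adjusted p = 1.72e-08). It had UMIs in 4 of 6 and 8 of 10 B-27 cells. The 4 rich cells held 9 of its 53 UMIs in mouse 1 and 17 of 87 in mouse 2. The other cadherin genes were less alike in the 2 mice. In mouse 1, the rich cell held 5 of 24 Dsg1a, 8 of 18 Dsc1 and 0 of 24 Dsc2 UMIs, while in mouse 2 the 3 rich cells held most of them, with 39 of 57, 23 of 40 and 26 of 35. Dsg1a had 118 and 259 CPM against 1.44 and 5.30 CPM (log2 fold change -6.34, SE 0.61), and the desmocollins Dsc1 and Dsc2 had log2 fold changes of -7.38 (SE 0.76) and -7.40 (SE 0.78). Dsc2 and Dsc1 had UMIs in 7 and 4 of 10 B-27 cells of mouse 2 and in 3 and 2 of 6 of mouse 1. Tgm3, a transglutaminase that crosslinks the envelope, had 83.3 and 132 CPM against 6.46 and 15.9 CPM, and was not called without the BMP2/4 sum of mouse 1 (adjusted p = 0.0275).

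Without the B-27 cell richest in the list in each mouse, 10 of 19 tested members were lower. In mouse 2 this took out the cell of 5.36% and kept the rich cells of 3.93% and 5.29%. The kept rich cells held 46 and 150 Sbsn UMIs and 0 and 16 of Dsg1b. No other kept cell of mouse 2 had more than 13 Sbsn UMIs, so this fit does not separate Sbsn from the rich cells. Cdsn then had a log2 fold change of -1.29 (adjusted p = 0.259), Krt10 of -1.14 (adjusted p = 0.0526) and Sprr1a of -2.44 (adjusted p = 0.0194). Dsg1b stayed at -6.60 (adjusted p = 1.4e-07) and Sbsn, a secreted suprabasal protein, at -3.27 (adjusted p = 3.53e-05), and Flg no longer passed the filter on low counts. Over all 543 genes lower in BMP2/4, 265 had more than 50% of their B-27 UMIs of mouse 1 in 1 cell and 113 had so in mouse 2. The median share held by the top cell was 50% and 33.3% for these genes, beside 50% and 44.2% over all genes tested.

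**Figure D4:**
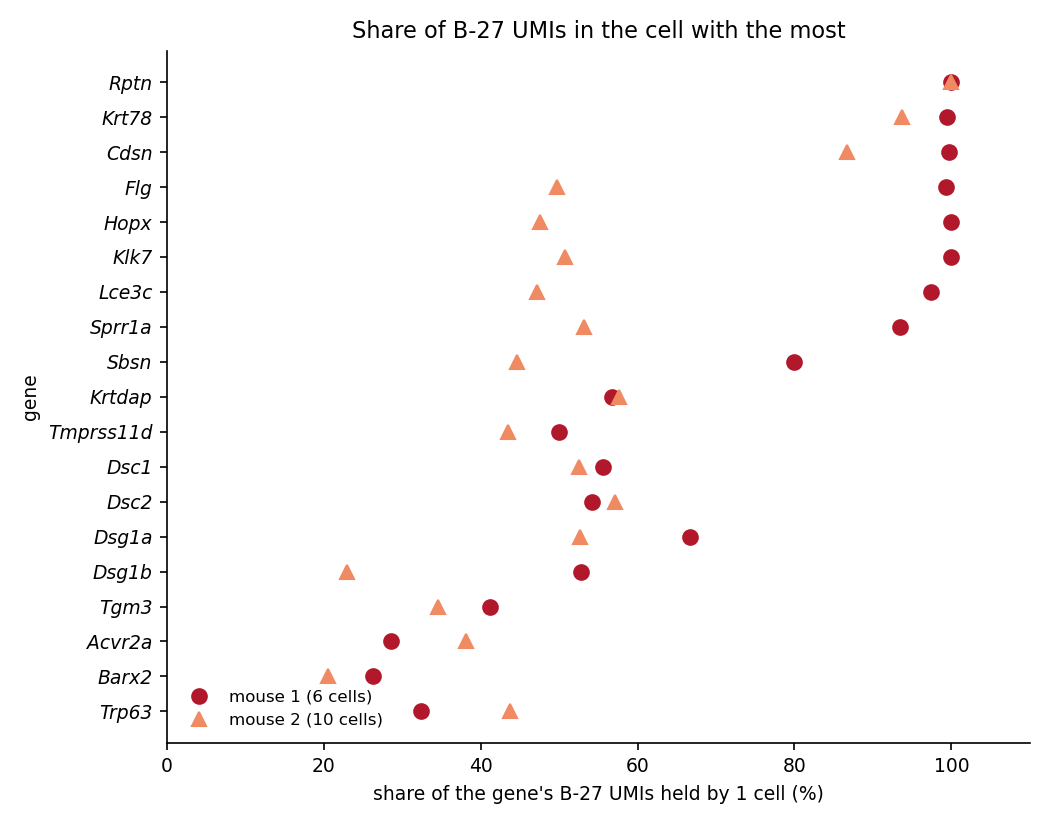
Share of a gene's B-27 UMIs (percent) held by the 1 cell with the most of them, for 19 genes lower in BMP2/4, in mouse 1 (circles, 6 cells) and mouse 2 (triangles, 10 cells). Rptn sits at 100% in both mice and Flg at 99.3% and 49.7%, whereas Dsg1b sits at 52.8% and 23.0% and Barx2 at 26.3% and 20.5%.

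In the few cells of the cultures with atRA+PKCi but no BMP2/4, differentiation genes were low as well. The atRA+PKCi cultures hold 2 cells and 1 cell, and the Rspo cultures 8 and 9 cells. In atRA+PKCi, Flg had 13.4 and 22.7 CPM, and in Rspo 4.27 and 5.28 CPM, and Cdsn 0 and 0 CPM and 42.7 and 26.4 CPM. Dsg1b had 0 and 22.7 CPM and 29.9 and 0 CPM. The list took 0.0738% and 0.245% of UMIs in atRA+PKCi and 0.350% and 0.118% in Rspo. All were under the B-27 values of 1.71% and 1.26%. B-27 cells outside the rich ones gave 0.0837% to 0.797% each. With so few cells, the values cannot show whether these cultures lack rich cells or the rich cells were not sampled. The 1 FBS cell kept, from mouse 1, gave 2.06% of its UMIs to the list.

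Beside the listed genes, the 15 genes with the strongest falls among abundant ones also held Tmprss11d, an airway-type serine protease, and Aloxe3, a lipoxygenase of the epidermal barrier. Both had 0 UMIs in BMP2/4. Tmprss11d had 29.4 and 105 CPM in B-27 and was at least 108-fold lower in BMP2/4, and Aloxe3 had 44.1 and 63.7 CPM and was at least 85.8-fold lower, both computed against 3 counts over the group. Kprp and Krt78, further barrier genes, had 137 and 41.0 CPM against 0.239 and 0 CPM, and 931 and 72.8 CPM against 0.479 and 3.54 CPM. Cpa4, a carboxypeptidase (201 and 205 CPM against 0.957 and 0 CPM), Tprg (201 and 196 CPM against 1.20 and 0 CPM) and Hopx (549 and 373 CPM against 4.07 and 1.77 CPM) had log2 fold changes of -7.58, -7.27 and -6.75. Fam83a, Pglyrp4 and Cemip, a hyaluronan-degrading protein, completed the set with log2 fold changes of -6.77, -6.67 and -6.62, from B-27 levels between 53.9 and 159 CPM. Tmprss11d, Aloxe3, Kprp, Fam83a and Pglyrp4 were not called without the BMP2/4 sum of mouse 1, and Aloxe3 was not without that of mouse 2 either.

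Of 22 listed wound and stress genes, 17 were tested, 3 were lower and 0 higher, with a median log2 fold change of -0.53, where 8.46% of all genes tested were lower. Leaving out 1 sum at a time left 1 or 2 lower, and leaving out the richest cells left 1. Krt6b, a keratin of wounded and suprabasal epidermis, had 426 and 1124 CPM against 98.1 and 70.7 CPM (log2 fold change -3.07, SE 0.45, adjusted p = 4.48e-05). Krt16, its usual partner, had 2092 and 3737 CPM against 785 and 580 CPM (log2 fold change -1.99, SE 0.50, adjusted p = 0.00807), and 56.2% of its B-27 UMIs of mouse 2 lay in 1 of the rich cells. That cell, with 461 Krt16 UMIs, was not the richest of mouse 2 and stayed in the fit without the richest cells. The mouse 2 cell left out in that fit held 21 Krt16 UMIs. Krt16 was not called without the richest cells (adjusted p = 0.0324), without the B-27 sum of mouse 2 (log2 fold change -1.36, adjusted p = 0.146), without the BMP2/4 sum of mouse 1 or mouse 2 (adjusted p = 0.0621 and 0.125) or with HTODemux (adjusted p = 0.0658). The third was Sprr1b, which the differentiation list also holds and which lost its call when any 1 sum was left out. Klf5, a transcription factor of the plastic state that the study tracks, had 186 and 137 CPM against 70.8 and 83.1 CPM, with groups that did not overlap, and did not pass (log2 fold change -0.95, SE 0.34, adjusted p = 0.0606). Krt6a (adjusted p = 0.478), S100a8 (adjusted p = 0.380) and S100a9 (adjusted p = 0.279) did not pass.

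Among 12 basal keratinocyte genes, which were all tested, 11 had positive log2 fold changes and none of these was called. Krt5 had 1495 and 2508 CPM in B-27 and 3394 and 3994 CPM in BMP2/4 (log2 fold change 0.97, SE 0.46, adjusted p = 0.151), and Krt14 5669 and 10907 CPM against 12439 and 11711 CPM (adjusted p = 0.398). Without the deepest B-27 cells, which held 165 of the 305 Krt5 UMIs of mouse 1 and 391 of 551 of mouse 2, Krt5 was called higher (log2 fold change 1.84, adjusted p = 0.00306). Trp63 was the 1 member called lower, with 681 and 469 CPM against 110 and 163 CPM (log2 fold change -1.97, SE 0.42, adjusted p = 0.00193), though it was absent from the 4 rich cells. It was not called without the B-27 sum of mouse 1 or without either BMP2/4 sum.

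Of 18 listed genes of HFSC identity, 8 were tested, 0 were higher and 1 was lower. Over all genes tested, 1.12% were higher and 8.46% lower. Krt15, the keratin of bulge cells, had 848 and 323 CPM in B-27 and 2138 and 2177 CPM in BMP2/4 (log2 fold change 2.03, SE 0.64, adjusted p = 0.0312), which did not pass. In mouse 1, 1 B-27 cell of 15122 UMIs held 118 of its 173 UMIs, and that cell was the B-27 cell HTODemux called a doublet. Sox9, the master regulator of HFSCs, had 167 and 200.3 CPM against 247 and 269 CPM (adjusted p = 0.261). Barx2, a homeobox gene, fell from 93.1 and 178 CPM to 23.9 and 24.8 CPM (log2 fold change -2.36, SE 0.38, adjusted p = 0.000141), with UMIs in 5 of 6 and 10 of 10 B-27 cells. Its call was lost without the B-27 sum of mouse 2 (adjusted p = 0.0247), without the BMP2/4 sum of mouse 1 (adjusted p = 0.01003) and with hashtag shares of at least 90%. Cd34, Lhx2, Nfatc1, Tcf7l1 and Lgr5 were among the 10 listed genes too low to be tested.

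**Figure D5:**
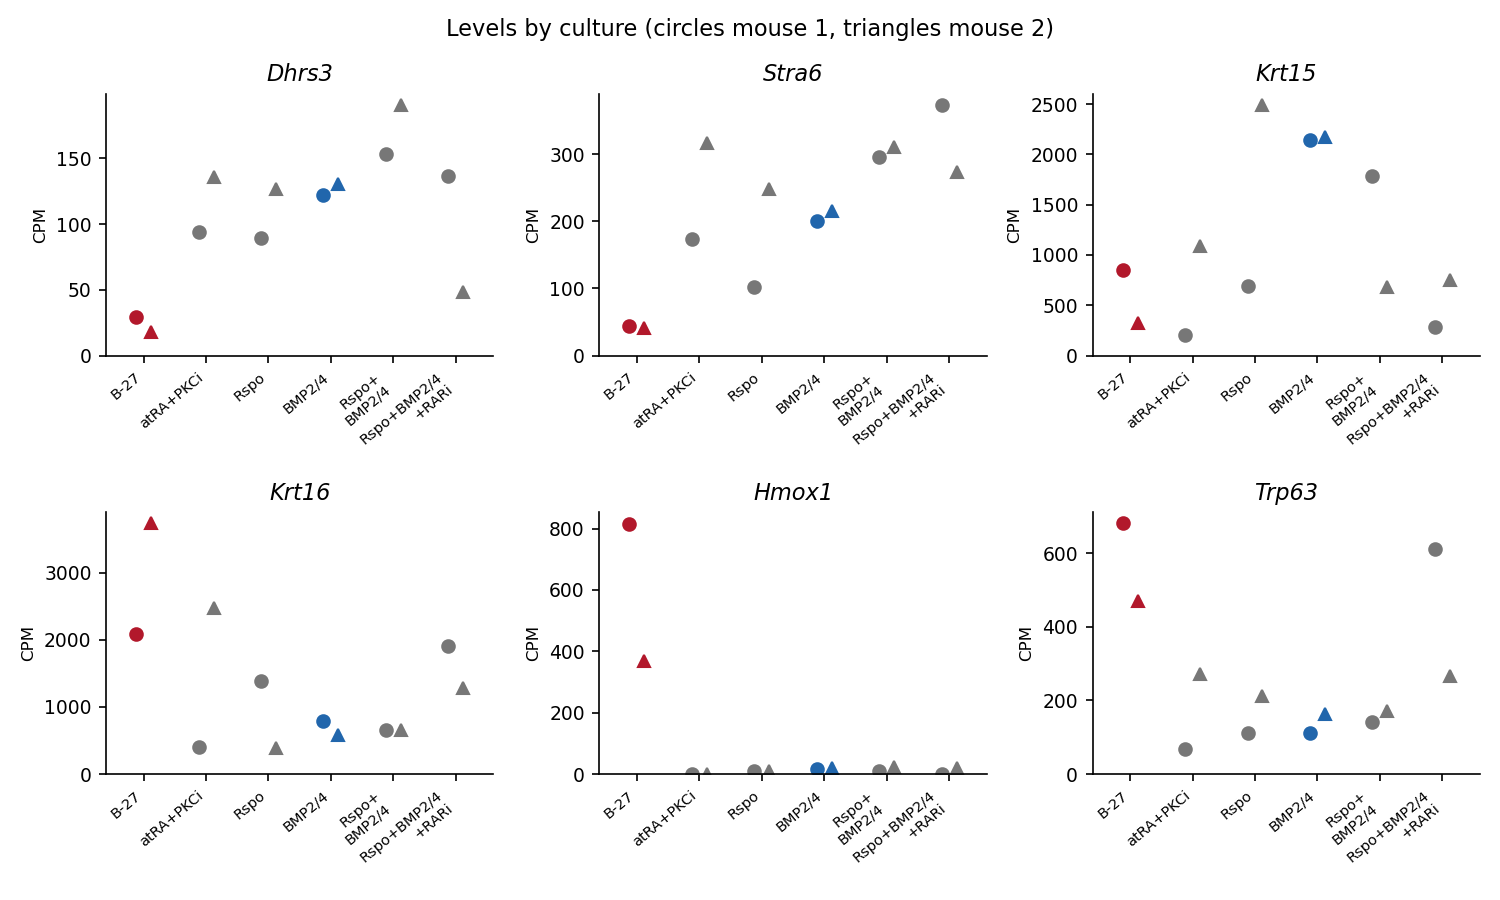
Levels of 6 genes (CPM, linear axes from 0) in each serum-free culture of mouse 1 (circles) and mouse 2 (triangles), B-27 in red and BMP2/4 in blue. Dhrs3 and Stra6 are lowest in B-27, Hmox1 is above 300 in B-27 (813 and 369) and at most 21.8 elsewhere, and Krt15 spans 201 to 1088 between the 2 mice of atRA+PKCi.

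Of 18 listed genes of the hair matrix and Wnt signaling, 7 were tested and 2 were higher, where 1.12% of all genes tested were. Hoxc13, a transcription factor of the hair shaft, had 9.80 and 4.55 CPM, that is 2 UMIs and 1 UMI, against 45.2 and 38.9 CPM (log2 fold change 2.72, SE 0.66, adjusted p = 0.00587), and leaving out any of the 4 sums ended its call. Cux1, a homeobox gene of the hair lineages, had 249.9 and 250.4 CPM against 717 and 767 CPM (log2 fold change 1.68, SE 0.42, adjusted p = 0.00756). With mouse as a block its adjusted p was 0.0102, and leaving out any 1 sum also ended its call. Gata3, a factor of the inner root sheath, had 39.2 and 100.1 CPM against 29.7 and 31.8 CPM and did not pass (adjusted p = 0.0840). Of the 19 listed hair shaft genes 1 was tested, and of the 11 inner root sheath genes 2, since the hair keratins were at or near 0 in both cultures.

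Among the other 15 genes with the strongest rises among abundant ones, several encode receptors or secreted proteins. Lgr6, an R-spondin receptor of follicle and epidermal stem cells, had 14.7 and 13.7 CPM in B-27 and 141 and 159 CPM in BMP2/4 (log2 fold change 3.50, SE 0.55, adjusted p = 0.000105). Lcn2, a secreted iron carrier, had 0 and 9.10 CPM against 56.5 and 79.6 CPM, and Clu, a secreted chaperone, 4.90 and 13.7 CPM against 80.2 and 67.2 CPM. Stard13 had 19.6 and 31.9 CPM against 161 and 225 CPM (log2 fold change 2.98, SE 0.48, adjusted p = 0.000138). Ramp1, a receptor partner of calcitonin-family peptides, and Pdgfb, a growth factor, rose from at most 14.7 CPM to between 46.0 and 80.2 CPM. Apobec1, U90926, Olfm2, Hoxc9 and Bst2 completed the set, with log2 fold changes between 2.88 and 3.74. Of these 11 genes, Hoxc9 and Pdgfb lost their calls when any 1 sum was left out, and Lcn2 did so as well. Ramp1, U90926 and Olfm2 lost theirs in 3 of those 4 fits, Clu in 2 and Apobec1 and Bst2 in 1 each, whereas Stard13 and Lgr6 kept theirs in all 4.

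Hmox1, the heme oxygenase induced by oxidative stress, was the 1 gene called among 10 tested of 13 listed NRF2 targets. It had 813 and 369 CPM in B-27 and 15.6 and 21.2 CPM in BMP2/4, with a log2 fold change of -4.93 (SE 0.47, adjusted p = 2.87e-07). In mouse 1, 163 of its 166 UMIs lay in the cell that held nearly all Flg, and in mouse 2, 68 of 81 lay in 1 of the 3 rich cells. Its UMIs were thus in 2 of the 4 rich cells for the most part. Of 19 listed cell division genes, 7 were tested and 0 passed, and of 7 listed inhibitors of cyclin-dependent kinases, 4 were tested and 0 passed. Over all genes tested, 9.58% were called in either direction. Mki67 had 34.3 and 31.9 CPM in B-27 and 10.5 and 7.07 CPM in BMP2/4 (adjusted p = 0.0917). Cdkn2a had 118 and 127 CPM against 308 and 269 CPM (adjusted p = 0.0504).

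Of the remaining lists, Hk1 (lower) and Bst2 (higher) were the called members of 13 glycolysis and 3 interferon-stimulated genes tested. Over all genes tested, 9.58% were called in either direction. Hk1 lost its call when any 1 sum was left out (adjusted p from 0.0105 to 0.131), with DESeq2 and with HTODemux, and Bst2 lost its call without the B-27 sum of mouse 1 (adjusted p = 0.0337). No member passed among 16 tested genes of cholesterol synthesis, 11 of AP-1 and the response to dissociation, 13 encoded by mitochondria and 4 of sebocytes, which hold 0 calls each. Their median log2 fold changes were -0.54, 0.93, 0.03 and 0.79. Markers of other cell types were near 0. The 8 immune genes gave 0 UMIs in B-27 and 0.00172% and 0.00407% of UMIs in BMP2/4, and the 5 endothelial genes at most 0.000490%. The 8 melanocyte genes gave 0.00191% to 0.00539%, with Dct, Tyr and Tyrp1 at 0. Of 12 fibroblast genes, 9 to 10 were at 0 in each sum, Col1a1, Col1a2, Col3a1, Dcn and Lum among them, and the list gave 0.0294% and 0.0378% in B-27 and 0.0857% and 0.0836% in BMP2/4, most of it Sparc. With sums of UMIs, fewer cells of a kind and less RNA per cell cannot be told apart, which is why values per cell stand beside those of the differentiation genes.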

How the data were processed

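The UMI counts of the single cells were deposited by the authors as 1 matrix per mouse, made with CellRanger 7.0.0 per the matrix headers (7.0.1 per the labels) on mm10, before the removal of ambient RNA and doublets that the methods describe; no transcriptome-based doublet caller was run here. HTODemux, run as an alternative, called 20 of 122 BMP2/4 and 1 of 6 B-27 cells of mouse 1 and 1 of 14 BMP2/4 cells of mouse 2 doublets by hashtag, and these were kept in the main test. For bulk RNA-seq, the authors deposited estimated counts per gene, which were scaled to CPM without a test. Cells were assigned by hashtag, UMIs were summed per mouse and culture, and the 10 sums of cultures with at least 5 cells were fitted as culture means in edgeR 4.0.16 (R 4.3.3; TMM factors from 0.872 to 1.22; filterByExpr; quasi-likelihood test; Benjamini-Hochberg adjustment over 6419 genes). p-values measure the spread between the 2 sums of a culture, pooled over all cultures fitted, with 5 residual degrees of freedom. That spread holds differences between lines and the sampling of cells, which cannot be told apart.

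In data simulated at these depths, 4.92% of genes with a true absolute log2 fold change of 1, 71.2% of those with 2 and 100% of those with 3 were called, with 2 false calls among 5921. The changed genes were drawn from the more abundant ones only, and sums were simulated rather than cells. These shares therefore do not carry over to genes of low level, or to B-27 sums in which 1 cell holds much of the RNA. Both cultures of a mouse come from 1 line, so mouse numbers pair the sums. Deviations from culture means of the 2 sums of a mouse correlated at -0.07, and mouse as a block was an alternative. The authors' normalized bulk table and the skin matrices were not used here.

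Members and gene lists were chosen with earlier results of these data known. Named genes were members of the lists described, and called genes at both ends of the log2 fold change, 15 each, whose mean reached 50 CPM in the higher culture and whose sums did not overlap between cultures, without mitochondrial, ribosomal and unnamed gene models. Gene positions came from GENCODE M21 and the promoter window from RefSeq (GRCm38.p6). Alternatives used HTODemux from Seurat 5.3.0 for hashtags, or DESeq2 1.42.0 for the test. Figures were drawn with matplotlib 3.10.9.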

Additional observations from a re-analysis of the deposited data

How the results depend on the processing

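The 72 genes higher and 543 lower in BMP2/4 were recomputed under each alternative. Leaving out 1 of the 4 sums gave 11 to 35 higher and 153 to 363 lower. With mouse as replicate block, 82 were higher and 526 lower, 67 and 513 of them among those of the fit without it, and of the named genes Cux1 lost and Skil gained a call. An adjusted p under 0.05 with no fold minimum gave 277 and 851. With no filter on low counts 162 were higher, and with only the 4 sums compared 234. HTODemux hashtags gave 27 and 331, cells with under 20% mitochondrial UMIs 182 higher, BMP2/4 sums thinned to the B-27 totals 44 and 290, and cells thinned to 3000 UMIs 46 and 155 among 1094 genes tested. Of these 46 and 155, only 10 and 131 were among the 72 and 543. DESeq2 gave 54 and 517. The cause of these shifts was not tested, beyond the fewer sums, cells, UMIs or genes that some alternatives hold by construction.

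The following alternatives were chosen after seeing the data. A hashtag share of at least 90% gave 239 lower. Without the deepest B-27 cell of each mouse, 427 were higher and 863 lower, the median log2 fold change of all genes tested was 0.11, and Fst turned to 0.51. Without the B-27 cell of each mouse richest in differentiation genes, 62 were higher and 443 lower. Of 62 named genes that were called, 19 kept their call under every alternative that tested them, and Fst was the 1 that reversed. A stricter limit of at least 1000 genes and under 5% mitochondrial UMIs was not run, since it left fewer than 5 cells in the B-27 sums and in 1 BMP2/4 sum. At 204077 and 219676 UMIs, 1 UMI is worth nearly 5 CPM in B-27, which limits the precision of low levels there.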

Other observations

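The Hox genes were looked at after their values were seen, because Hoxc9 and Hoxc13 had been named. Of 14 Hox genes tested, 4 were called higher in BMP2/4, where 1.12% of all genes tested were, and all 14 had positive log2 fold changes, from 0.08 to 4.14. The 4 called were among the 6 tested genes of the Hoxc cluster, which is active in skin and hair. Hoxc6 had 0 and 4.55 CPM in B-27 and 38.8 and 42.4 CPM in BMP2/4 (adjusted p = 0.0012), and Hoxc8 had 19.6 and 27.3 CPM against 108 and 131 CPM (adjusted p = 0.0014). Each rested on 10 or fewer UMIs over both B-27 sums. The other 2, Hoxc9 and Hoxc13, lost their calls when any 1 sum was left out. What those fits gave for Hoxc6 and Hoxc8 was not looked at.

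Of the 72 genes higher in BMP2/4, 4 had 0 UMIs in B-27 in both mice. Cnr1, a cannabinoid receptor, was at least 5.06-fold higher, C1qtnf12 at least 4.91-fold, Entpd3, an enzyme that splits extracellular ATP, at least 3.87-fold and Sh2b2 at least 3.28-fold, each against 3 counts over the group.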
